A study of Mus musculus with 7 samples.

Results

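The tenascin family of matrix glycoproteins was examined in whole mouse shoulder joints after tendon repair. Its members were the 4 genes Tnc, Tnxb, Tnn and Tnr, found by symbol in the Tnc-/- libraries and by the same Ensembl identifiers in the wild-type libraries, 4 of the 56854 identifiers listed for both genotypes. The joints came from 7 mice whose left supraspinatus tendon, a tendon of the rotator cuff, had been surgically repaired, and were taken 2 weeks after the operation. The groups were wild-type mice (n = 3) and mice carrying a deletion of the tenascin-C gene (Tnc-/-, n = 4), with 1 library per mouse. Both groups underwent the repair, and the samples include no unoperated joint. The labels give neither strain, age nor sex, and do not say which part of Tnc the allele removes. The question put to the data was how much Tnc RNA was left, and whether the other 3 genes were higher where Tnc was missing.

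Tenascins are large secreted proteins built from EGF-like repeats, fibronectin type III repeats and a globular end that resembles fibrinogen. Tenascin-C is made during development and is made again in wounds, in inflamed tissue and in tendon, where mechanical load raises it. Tenascin-X, from Tnxb, is a partner of fibrillar collagens in connective tissue, and its loss in people causes a form of Ehlers-Danlos syndrome. Tenascin-W, from Tnn, is found in periosteum, in stem cell niches of bone and teeth, and in the stroma of tumours. Tenascin-R, from Tnr, is a protein of the central nervous system, made by oligodendrocytes and some neurons and laid down in perineuronal nets.

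The bases before the start sites of Tnc and Tnxb are shown because Tnc is the deleted gene and Tnxb is the member that was higher without it. Both sequences are from RefSeq, build GRCm38.p6, 250 bases up to the start site, written 5′ to 3′ on the gene's own strand. Tnc is on the minus strand, chr4:64047016-64047265, and Tnxb on the plus strand, chr17:34670285-34670534. Capitals mark matches to a TATA box core (TATAAA), an AP-1 site (TGAGTCA) or a GC box (GGGCGG), each searched on both strands.
Tnc: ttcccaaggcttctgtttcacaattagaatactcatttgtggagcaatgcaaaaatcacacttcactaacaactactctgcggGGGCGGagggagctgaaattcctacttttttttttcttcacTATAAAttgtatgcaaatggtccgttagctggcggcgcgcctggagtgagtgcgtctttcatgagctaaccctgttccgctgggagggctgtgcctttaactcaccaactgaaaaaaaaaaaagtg
Tnxb: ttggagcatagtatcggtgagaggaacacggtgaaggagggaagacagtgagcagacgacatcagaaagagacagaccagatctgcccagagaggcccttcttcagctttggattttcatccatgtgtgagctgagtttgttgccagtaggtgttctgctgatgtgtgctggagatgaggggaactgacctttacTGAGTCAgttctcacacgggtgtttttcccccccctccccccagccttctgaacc
The Tnc window held the GC box letters from base -167 and the TATA box core from base -126, counted back from the start. RefSeq also lists a second Tnc start, whose window (chr4:64046937-64047186) holds the same letters from bases -246 and -205. The Tnxb window held the AP-1 letters from base -55. Over 32851 RefSeq promoter windows of the same length, 12.4% held the TATA box core, 4.5% the AP-1 letters and 32.7% the GC box letters, on either strand. The windows of Tnn and Tnr held no match to these letters.

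Gene counts totalled 13464057 to 18503833 in the wild-type libraries and 19250322 to 28191101 in the Tnc-/- libraries. The files of the genotypes came from separate counting runs, since 126 identifiers were listed for wild type alone and 87 for Tnc-/- alone, so effects of the counting and of the genotype cannot be told apart here. None of the 4 members overlaps an identifier listed for only 1 genotype. Wild-type libraries 2 and 3 carried many reads in genes that a joint should not use. The 1529 receptor genes for smell and pheromones summed to 1259 and 881 CPM there, against 81.0 CPM in wild-type library 1 and 35.15 to 42.0 CPM in the Tnc-/- libraries. CPM here are counts scaled to the size of each library after TMM, a correction for differences in library makeup. Reads also appeared to have been assigned over whole gene spans without regard to strand. Of 559 protein-coding genes lying inside another gene with no shared exon base, 99.3 to 99.8% had 0 counts, against 24.1 to 32.4% of 12191 protein-coding genes that overlap no gene. Scx, the transcription factor that defines tendon cells, lies inside Bop1 and had 0 counts in all 7 libraries, so tendon could be checked only through its other markers (Tnmd, Mkx, Fmod and Thbs4), which were present. The 5 tendon markers summed to 2676 to 3402 CPM in wild type and 2615 to 4455 CPM in Tnc-/-. The call rule was an adjusted p under 0.05 in edgeR's quasi-likelihood test with Benjamini-Hochberg adjustment, and every fold change has wild type as its base.

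Tnc, the gene removed in the mutant, was strongly reduced but not absent in the joints labelled Tnc-/-. The 3 wild-type libraries held 8137, 4394 and 5386 Tnc counts (ENSMUSG00000028364), or 437, 292 and 327 CPM. The 4 Tnc-/- libraries held 902, 698, 712 and 1051 counts, or 33.4, 38.9, 39.9 and 54.97 CPM. Every Tnc-/- library lay far below every wild-type library, and the lowest wild-type value was several times the highest Tnc-/- value. The mean fell from 352 ± 75.5 CPM (SD, n = 3) to 41.8 ± 9.26 CPM (SD, n = 4), so that 11.9% of the wild-type level remained. The log2 fold change was -3.08 (SE 0.22, 95% interval -3.56 to -2.59), an 8.43-fold fall (adjusted p = 0.00028, edgeR's quasi-likelihood test with Benjamini-Hochberg adjustment). Over all 17791 genes tested, 29% were called and 18.7% were called lower, so the call itself is common in these data, and 17.4% lay lower in Tnc-/- with no overlap. A lower fold change than that of Tnc was found for 1840 genes. The 4 members all passed the filter on low counts, with more than 0.519 CPM in each of the 3 wild-type and 4 Tnc-/- libraries, so none entered the test through 1 genotype alone. In bulk joint tissue, fewer cells that make a transcript and less RNA per cell cannot be told apart.

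If reads were assigned as inferred above, the Tnc counts describe the 3′ end of the gene. The opposite-strand gene 8030451A03Rik covers 67.2 kb of the 87.2 kb Tnc span in the GENCODE M21 annotation, and reads there would be set aside as ambiguous in such counting. The 20.1 kb left over lie at the 3′ end, and 0 kb at the 5′ end. Only 2.13 of the 7.77 kb of Tnc exon sequence, 27.4%, lies outside that neighbour. The neighbour itself had 16, 118 and 21 counts in wild type and 7, 40, 34 and 50 counts in Tnc-/-. Should the deleted part lie upstream of the 3′ end, these reads measure transcript remaining from the targeted locus and do not test the deletion itself. At the density of reads over receptor genes, background would supply at most 0.707% of the Tnc counts in any library.

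**Figure D1:**
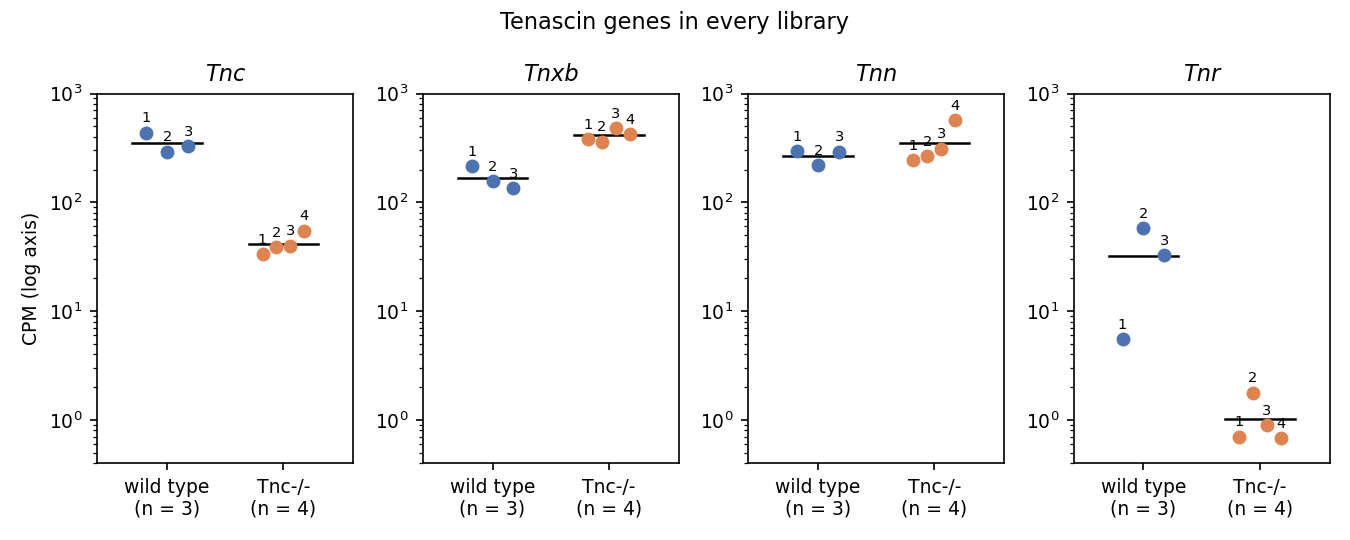
CPM (TMM-scaled, log axis) of each tenascin gene in the 3 wild-type and 4 Tnc-/- libraries, with points numbered by replicate and a bar at the group mean. Tnc and Tnr lie lower and Tnxb lies higher in every Tnc-/- library than in any wild-type library, while the Tnn values overlap.

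Tnxb, which encodes the collagen-associated tenascin-X, was higher in every Tnc-/- joint. Wild-type libraries held 4007, 2351 and 2225 counts (ENSMUSG00000033327), or 215, 156 and 135 CPM. Tnc-/- libraries held 10311, 6495, 8553 and 8095 counts, or 381, 362, 479 and 423 CPM. The groups did not overlap, which was also so for 35.1% of all genes tested and, in the higher direction, for 17.7%. The mean was 169 ± 41.4 CPM (SD, n = 3) in wild type and 411 ± 51.8 CPM (SD, n = 4) in Tnc-/-, and the Tnc-/- values spread less for their size, with a coefficient of variation of 12.6% against 24.5%. The log2 fold change was 1.28 (SE 0.20, 95% interval 0.83 to 1.74), a 2.44-fold rise (adjusted p = 0.0067, edgeR's quasi-likelihood test with Benjamini-Hochberg adjustment). Among all genes tested, 10.3% were called higher, and 562 of 17791 had a higher fold change than Tnxb. Tnxb shares only 0.003 kb of its span with another listed gene, the pseudogene Cyp21a2-ps, so all of its 12.21 kb of exon could be counted.

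Transcripts rich in GC, as Tnxb is, were also higher on the median in Tnc-/-. The Tnxb transcript is 12.21 kb long with a GC content of 60.7%, the highest of the 4 members. Protein-coding genes with a transcript GC of at least 60% had a median log2 fold change of 0.48 (n = 651), against 0.05 for all 14813 protein-coding genes tested, and 7.37% of them rose more than Tnxb. The 17 genes with both that GC and a transcript of at least 8 kb, Tnxb among them, had a median of 1.05 with quartiles of 0.89 and 1.35, and 5 of the 17 lay above Tnxb. Length alone went the other way, with a median of -0.31 for 896 transcripts of at least 8 kb, 98 called higher and 280 lower. The 10 long, GC-rich genes that also span under 60 kb, as Tnxb does, had a median of 0.93, and 2 of them lay above Tnxb. These classes were chosen after the values were seen. With offsets for GC, transcript length and gene span in the edgeR fit, the Tnxb log2 fold change was 0.74 (SE 0.23, adjusted p = 0.0454, Benjamini-Hochberg), in a fit that called 24.1% of genes. With the summed level of receptor genes as a covariate it was 0.80 (SE 0.26) and the edgeR adjusted p was 0.126, in a fit that called 2.48% of genes. Without wild-type libraries 2 and 3 it was 0.93 (SE 0.22, edgeR adjusted p = 0.041), in a fit that called 4.45% of genes and assumes the lone wild-type library to vary like the Tnc-/- libraries. What part library composition had in the rise was not tested. DESeq2 with Bonferroni adjustment, the procedure named in the series text, gave a log2 fold change of 1.25 (SE 0.19) and an adjusted p of 1.57e-06, in a fit that called 6.49% of genes.

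**Figure D2:**
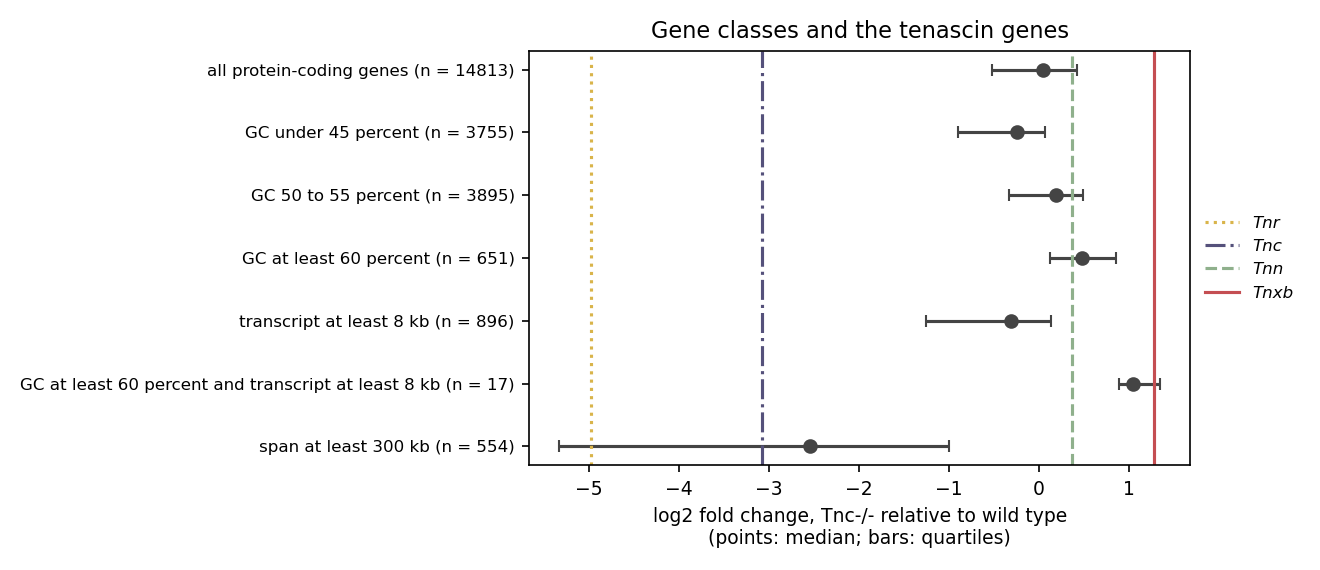
Log2 fold change, Tnc-/- relative to wild type, of protein-coding gene classes by GC content, transcript length and gene span (points, medians; bars, quartiles; n, genes tested), with vertical lines at the 4 tenascin genes. The Tnxb line at 1.28 falls between the median of 1.05 and the upper quartile of 1.35 of long GC-rich transcripts, and the Tnr line at -4.98 falls between the lower quartile of -5.33 and the median of -2.54 of genes spanning at least 300 kb.

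Tnn, which encodes tenascin-W of bone and periosteum, did not pass the test. Its counts (ENSMUSG00000026725) were 5509, 3299 and 4786 in wild type, or 296, 219 and 291 CPM. In Tnc-/- they were 6600, 4732, 5571 and 10889, or 244, 264, 312 and 569.6 CPM. The groups overlapped: Tnc-/- libraries 1 and 2 lay within the wild-type range, library 3 lay just above it, and library 4 stood well above all others. The mean was 268 ± 42.8 CPM (SD, n = 3) in wild type and 347 ± 151 CPM (SD, n = 4) in Tnc-/-. The log2 fold change was 0.37 (SE 0.30, adjusted p = 0.381 in edgeR's quasi-likelihood test with Benjamini-Hochberg adjustment). Its 95% interval, -0.31 to 1.05, covers both no change and a doubling. Without Tnc-/- library 4 the log2 fold change was 0.02 (SE 0.18, edgeR adjusted p = 0.943), so the higher mean rests on that joint.

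Tnc-/- library 4 also had the highest residual Tnc among the mutants, and Tnc and Tnn placed the 4 mutant joints in the same order. The same library had the highest summed markers of tendon fibroblasts (4455 CPM against 2615 to 3230 in the other Tnc-/- libraries), of osteoblasts and periosteum (3655 against 2281 to 2540 CPM) and of chondrocytes (3442 against 1240 to 2379 CPM). Its smooth muscle sum was also highest, at 288 CPM against 174 to 212 CPM. Whether a different mix of tissues in that joint raised Tnn was not tested. The genotypes overlapped in these marker sums, with exact two-sided permutation p-values of 0.857 for tendon, 0.686 for osteoblast, 0.743 for chondrocyte and 0.8 for smooth muscle (n = 3 and 4). Among their single markers, Mkx was called lower (-0.92, edgeR adjusted p = 0.0379) and Bglap higher (0.55, edgeR adjusted p = 0.0374). Schwann cell markers summed to 244 to 288 CPM in wild type and 286 to 301 CPM in Tnc-/- (p = 0.114, exact permutation test), with Mbp called higher (0.81, edgeR adjusted p = 0.0121). The sum of 4 skeletal muscle markers did not overlap, at 16650 to 21700 CPM in wild type and 23390 to 34090 CPM in Tnc-/- (p = 0.0571, exact permutation test, the smallest possible). Of the 4, Myh4 alone was called (1.18, edgeR adjusted p = 0.00856), and Acta1 and Ckm overlapped between the genotypes. Tnnt3 did not overlap, at 1728 to 2987 CPM in wild type and 3568 to 5482 CPM in Tnc-/- (0.78, edgeR adjusted p = 0.0516).

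Tnr, the tenascin of the nervous system, had few counts in every Tnc-/- joint and in wild-type library 1, and more in wild-type libraries 2 and 3. Counts (ENSMUSG00000015829) were 103, 870 and 534 in wild type, or 5.53, 57.8 and 32.4 CPM. They were 19, 32, 16 and 13 in Tnc-/-, or 0.703, 1.78, 0.896 and 0.68 CPM. No Tnc-/- library reached the lowest wild-type value, but the ratio between wild-type libraries 1 and 2 was wider than that between wild-type library 1 and any Tnc-/- library. The mean was 31.9 ± 26.2 CPM (SD, n = 3) in wild type and 1.02 ± 0.521 CPM (SD, n = 4) in Tnc-/-. The log2 fold change was -4.98 (SE 0.75, 95% interval -6.67 to -3.28; adjusted p = 0.0067, edgeR's quasi-likelihood test with Benjamini-Hochberg adjustment).

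Tnr reads were densest in the libraries where reads on receptor genes were densest. Tnr spans 408 kb, the longest of the 4 genes, and carried 1.66, 17.4 and 9.76 CPM per 100 kb of countable span in wild type. The receptor genes carried 0.662, 10.3 and 7.20 CPM per 100 kb in the same 3 libraries, so the density on Tnr was 2.51, 1.69 and 1.36 times theirs. Reads at the receptor-gene density would make up 39.8, 59.1 and 73.8% of the Tnr counts in these 3 libraries, and what the rest came from was not tested. In the Tnc-/- libraries the density on Tnr was 0.629, 1.56, 0.842 and 0.712 times that of the receptor genes. Across genes, the median log2 fold change of 586 tested genes with spans of at least 300 kb was -2.71. Among them, 460 (78.5%) were called lower, 4 were called higher, and 180 fell further than Tnr. The 4 neuronal markers summed to 11.0, 141 and 94.6 CPM in wild type and 3.99 to 5.71 CPM in Tnc-/-. The oligodendrocyte markers summed to 0.59, 28.0 and 17.0 CPM in wild type and 0.148 to 0.557 CPM in Tnc-/-, with Mobp, Olig2 and Opalin each at 0 in at least 1 library. With the receptor genes as a covariate, the log2 fold change of Tnr was -1.57 (SE 0.47, edgeR adjusted p = 0.0996). With offsets for GC, transcript length and gene span it was -2.44 (SE 0.35, edgeR adjusted p = 0.00633), a smaller fall that was still called. With limma voom it was -4.44 (adjusted p = 0.157), in a fit that called 5.64% of genes. Without wild-type library 2 alone it was -4.22 (edgeR adjusted p = 0.0208), and without wild-type libraries 2 and 3 it was -2.46 (SE 0.50, edgeR adjusted p = 0.0244). At 13 to 32 counts per Tnc-/- library, a Tnr level above the receptor-gene density was not detectable in libraries 1, 3 and 4, and library 2 stood above it.

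**Figure D3:**
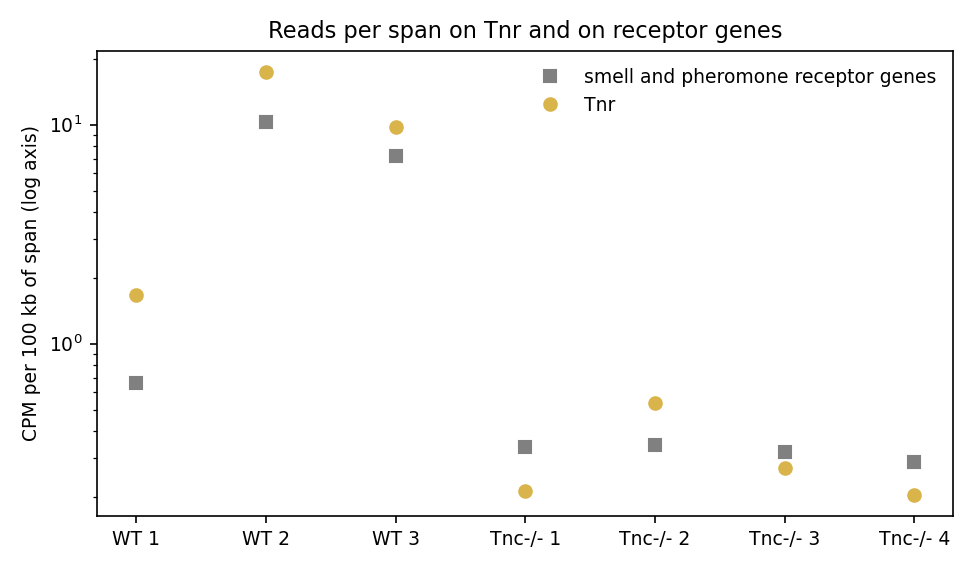
CPM per 100 kb of gene span (log axis) on Tnr (circles) and on 1529 smell and pheromone receptor genes (squares) in each library. Both are highest in wild-type libraries 2 and 3 and lowest in the Tnc-/- libraries, where Tnr lies above the receptor genes in library 2 and below them in libraries 1, 3 and 4.

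The members were then set side by side per length, first per kb of all exons, a length of which only 27.4% appeared countable for Tnc. On that scale, in wild type, Tnn, at 46.2 ± 7.35 CPM per kb (SD, n = 3), and Tnc, at 45.3 ± 9.71 CPM per kb, did not differ beyond their spread, an order that changed with the countable length given further on, and Tnxb followed at 13.8 ± 3.39 and Tnr at 2.48 ± 2.03 CPM per kb. In Tnc-/- the order was Tnn at 59.7 ± 25.9 CPM per kb (SD, n = 4), Tnxb at 33.7 ± 4.24, Tnc at 5.37 ± 1.19 and Tnr at 0.0789 ± 0.0404 CPM per kb. There Tnn lay above Tnxb in each library, ranging from 42.0 to 97.9 CPM per kb against 29.6 to 39.2 CPM per kb, although the SDs of Tnn and the gap between the means were alike in size. Tnc made up 39.8 to 44.9% of the summed family level in wild type and 5.06 to 6.25% in Tnc-/-. Tnxb made up 10.5 to 14.1% in wild type and 24.8 to 40.3% in Tnc-/-.

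The summed level of Tnxb, Tnn and Tnr was 68.9, 54.98 and 63.6 CPM per kb in wild type and 73.2, 75.1, 92.9 and 133 CPM per kb in Tnc-/-. The groups did not overlap, and the log2 difference of 0.55 had p = 0.0571 by an exact two-sided permutation test over 35 splits (n = 3 and 4), the smallest p this test allows here. Without Tnc-/- library 4 the log2 difference was 0.36. Mean Tnc fell by 39.91 CPM per kb, and the mean difference was 19.9 CPM per kb for Tnxb, 49.8% of the Tnc loss, and -2.40 CPM per kb for Tnr. For Tnn, which did not pass the test, it was 13.5 CPM per kb, and 0.80 CPM per kb without Tnc-/- library 4. With Tnc included, the family sum was 108 ± 16.4 CPM per kb in wild type (SD, n = 3) and 98.9 ± 28.7 in Tnc-/- (SD, n = 4), a log2 difference of -0.16 (p = 0.571, exact permutation test).

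This balance depended on the length given to Tnc. Counted per kb of exon that lies outside other genes, Tnc stood at 165 ± 35.4 CPM per kb in wild type (SD, n = 3) and 19.6 ± 4.35 in Tnc-/- (SD, n = 4). It was then the highest of the family in wild type, and made up 70.5 to 74.8% of the family there and 16.3 to 19.6% in Tnc-/-. On that scale the family sum was 229 ± 41.2 CPM per kb in wild type (SD, n = 3) and 113 ± 31.8 in Tnc-/- (SD, n = 4), with no overlap. The log2 difference was -1.04 (p = 0.0571, exact permutation test, the smallest possible), and the Tnxb gain was 13.6% of the Tnc loss of 146 CPM per kb. Per kb of whole gene span the sign turned, with a log2 difference of 0.27. That length counts all 87.2 kb of Tnc, of which only 20.1 kb appeared countable. Among these lengths, countable exon matches the inferred counting, and on it the family sum was lower in Tnc-/-. As the counting was inferred and the settings were not given, the data gave no single value for how far the paralogues made up for the missing Tnc. No protein was measured.

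**Figure D4:**
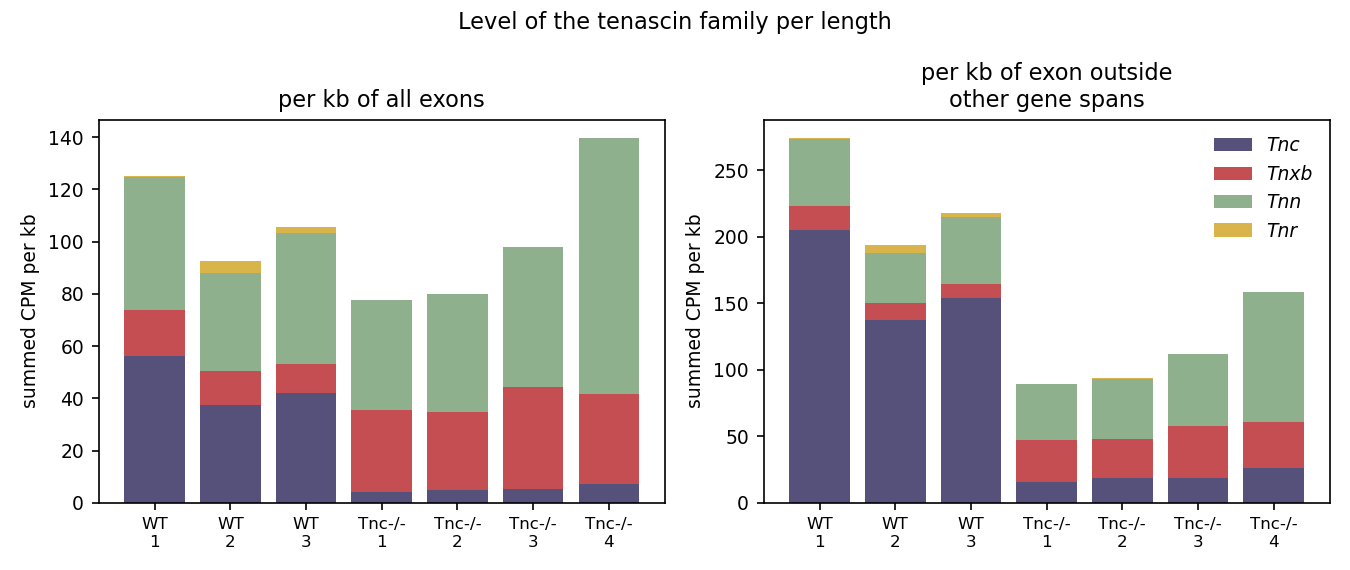
Summed CPM per kb of the 4 tenascin genes in each library (stacked bars), with all exon bases as the length on the left and only exon bases outside other gene spans on the right. On the left the wild-type libraries, at 92.5 to 125 CPM per kb, lie within the range of the Tnc-/- libraries, at 77.5 to 140 CPM per kb, and on the right every Tnc-/- library, at 88.9 to 159 CPM per kb, lies below every wild-type library, at 194 to 274 CPM per kb.

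Ratios within a library need no scaling between libraries. The log2 ratio of Tnxb to Tnc counts per kb of exon was -1.67, -1.55 and -1.93 in wild type and 2.86, 2.57, 2.94 and 2.29 in Tnc-/-. Tnc thus exceeded Tnxb in every wild-type joint on this scale and Tnxb exceeded Tnc in every mutant joint, a shift of 4.38 on the log2 scale. Most of that shift is the loss of the deleted gene itself (-3.08), so it is given with no test. The log2 ratio of Tnn to Tnxb was 1.53, 1.56 and 2.17 in wild type and 0.43, 0.61, 0.45 and 1.497 in Tnc-/-. Tnxb gained on Tnn in every mutant joint, least in library 4, with a difference of -1.01 (p = 0.0571, exact permutation test, n = 3 and 4). Neither ratio overlapped between the groups, although the Tnn to Tnxb ratio of Tnc-/- library 4 came close to the lowest wild-type value. A ratio does not cancel shifts that go with GC content, which was 60.7% for Tnxb and 53.5% for Tnn. Protein-coding genes with a GC of 50 to 55% had a median log2 fold change of 0.19, against 1.05 for the long GC-rich class that holds Tnxb. What part this had in the Tnn to Tnxb ratio was not tested.

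**Figure D5:**
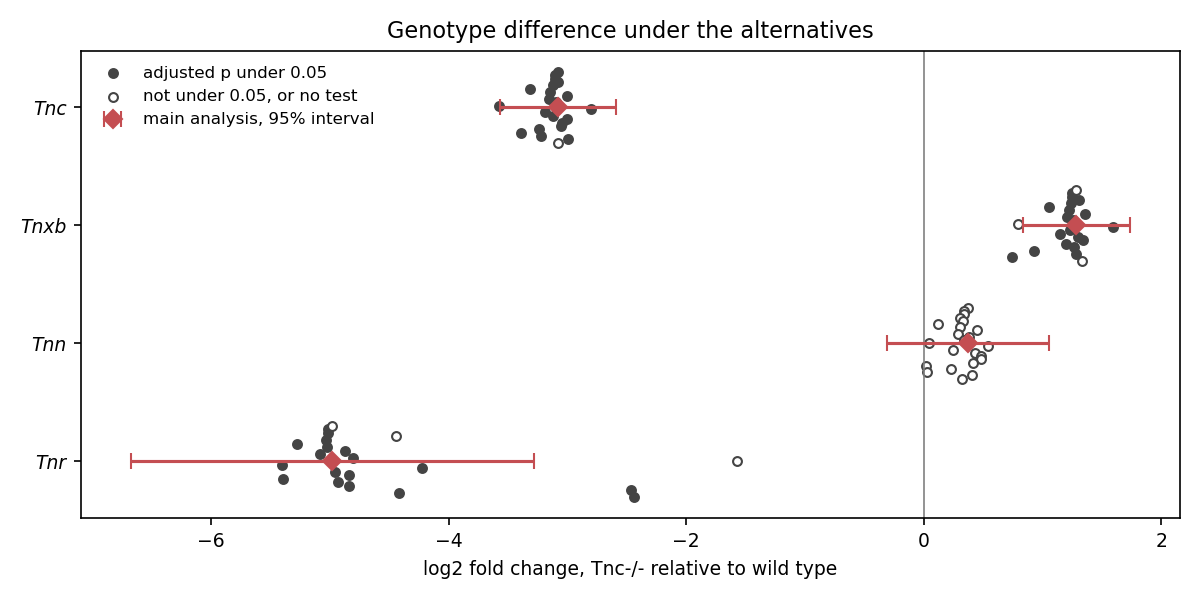
Log2 fold change of each tenascin gene, Tnc-/- relative to wild type, in the main analysis (diamonds, bars the 95% interval) and in each alternative analysis (circles, filled where the adjusted p is under 0.05). Tnc stays between -3.57 and -2.80 and Tnn between 0.02 and 0.54, while Tnr reaches from -5.40 to -1.57 and Tnxb from 0.74 to 1.59.

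Genes that act with tenascins were called at a share near that of all genes. Of 60 such genes listed (receptors, matrix partners, inducers and proteases), 57 were tested and 24.6% were called, against 29% of all genes tested. Of the 57, 5 (background 10.3%) were higher and 9 (background 18.7%) lower in Tnc-/-, with a median log2 fold change of -0.01 beside -0.00 over all 17791 genes. Scn2b, Fgf2 and Mmp7 did not pass the filter on low counts. Of these 14 called genes, 7 kept their call when any single library was left out. With the receptor-gene covariate, in a fit that called 2.48% of all genes, 0 of the 14 were called. Without wild-type libraries 2 and 3, in a fit that called 4.45%, 1 of them, Itgav, was called. The log2 fold changes moved unequally with the covariate: from -0.62 to -0.78 for Itgav, from -0.47 to -0.64 for Egfr and from -0.81 to -0.63 for Tlr4, but from 0.77 to 0.17 for Tgfb1 and from 0.86 to 0.18 for Itgb3. The covariate fit called 2 other listed genes, Mmp3 lower and Mrtfa, a partner of Srf, higher (0.93, edgeR adjusted p = 0.0398). Both were also called without wild-type libraries 2 and 3 (Mrtfa 0.76, adjusted p = 0.0256), as was Prrx1, lower (-0.71, adjusted p = 0.043). Mrtfa and Prrx1 are named after their values were seen.

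Among 16 receptors tested, 1 rose and 6 fell, with a median of -0.22, so that 43.8% were called against 29% of all genes (10.3% higher, 18.7% lower). The 6 that fell span 82.5 to 290.8 kb, while others of like span, such as Itga9 at 294.3 kb, were not called. Protein-coding genes spanning at least 300 kb had a median log2 fold change of -2.54, against 0.18 for those under 60 kb. What part gene span had in the receptor share was not tested. Cntn1, a neuronal adhesion protein that binds tenascin-R, was at 1.66, 37.4 and 33.4 CPM in wild type and at 0.052 to 0.39 CPM in Tnc-/- (log2 fold change -6.86, SE 1.07, edgeR adjusted p = 0.0068). Its reads were high in the same wild-type libraries as those of Tnr. The log2 fold change of Cntn1 was -1.85 with the receptor-gene covariate (edgeR adjusted p = 0.154) and -3.01 without wild-type libraries 2 and 3. Itga8, an integrin subunit that pairs with the beta 1 chain to bind tenascin-C and tenascin-W, was at 13.4, 24.99 and 28.3 CPM in wild type and 5.96 to 7.73 CPM in Tnc-/- (-1.70, SE 0.29, adjusted p = 0.00732). It was also highest in wild-type libraries 2 and 3, and its log2 fold change was -0.74 with the covariate (edgeR adjusted p = 0.272) and -0.98 without those libraries (edgeR adjusted p = 0.0564). Tlr4, the innate immune receptor that the fibrinogen-like end of tenascin-C can activate, was at 35.3, 37.9 and 43.0 CPM in wild type and 19.6 to 25.3 CPM in Tnc-/- (-0.81, SE 0.15, adjusted p = 0.0083). The log2 fold change of Tlr4 was -0.63 with the covariate (edgeR adjusted p = 0.18) and -0.68 without wild-type libraries 2 and 3. The other called receptors are named because their number is small, after their values were seen. Itgav fell (-0.62, adjusted p = 0.00929), as did Egfr (-0.47, adjusted p = 0.0225) and Ptprz1 (-1.15, adjusted p = 0.00977), and Itgb3 rose (0.86, adjusted p = 0.0315). The calls of Egfr and Itgb3 were each lost when 1 of 5 libraries was left out, with adjusted p-values of up to 0.0779 and 0.114.

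Of 14 matrix partners tested, 1 rose and 1 fell, with a median of 0.04, so that 14.3% were called against 29% of all genes. Hspg2, the basement membrane proteoglycan perlecan, was at 545, 373 and 389 CPM in wild type and 706.5, 817, 859 and 1128 CPM in Tnc-/- (log2 fold change 1.01, SE 0.22, edgeR adjusted p = 0.0126), and the call was lost without wild-type library 3 (adjusted p = 0.0603). The log2 fold change of Hspg2 was 0.51 with the receptor-gene covariate (edgeR adjusted p = 0.415) and 0.68 without wild-type libraries 2 and 3. Ncan, a proteoglycan of brain matrix that binds tenascins, fell from 0.751, 6.78 and 4.98 CPM in wild type to 0.592, 0, 0.168 and 0.0523 CPM in Tnc-/- (adjusted p = 0.025). The groups did not overlap in CPM, though wild-type library 1, with 14 counts, and Tnc-/- library 1, with 16, were close. Leaving out any of wild-type libraries 2 and 3 or Tnc-/- libraries 2, 3 and 4 ended the call (adjusted p up to 0.0834). Col5a1, a collagen chain that regulates fibril diameter, had a log2 fold change of 0.64 (SE 0.26, adjusted p = 0.094) and was not called. Periostin, fibronectin and collagen genes of the list were not called either.

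Among 23 inducers and transcriptional regulators of tenascin genes, 3 rose and 1 fell, with a median of 0.11, so that 17.4% were called against 29% of all genes, of which 10.3% rose. Srf, a transcription factor and partner of Mrtfa, was at 58.0, 46.8 and 49.3 CPM in wild type and 77.4 to 97.1 CPM in Tnc-/- (log2 fold change 0.73, SE 0.14, edgeR adjusted p = 0.00835). Tgfb1, a growth factor that induces tenascin-C, was at 131, 76.6 and 91.2 CPM in wild type and 147 to 183 CPM in Tnc-/- (0.77, SE 0.19, adjusted p = 0.0203). Rbpj, the DNA-binding partner of Notch, was at 129, 139 and 138 CPM in wild type and 94.9 to 104 CPM in Tnc-/- (-0.45, SE 0.11, adjusted p = 0.0165). The call of Tgfb1 was lost when any of wild-type libraries 2 and 3 or Tnc-/- libraries 1, 3 and 4 was left out (adjusted p up to 0.0881), and that of Rbpj without wild-type library 3 or Tnc-/- library 3 (up to 0.0611). Il1b, an inflammatory cytokine named after its values were seen, rose by 1.29 on the log2 scale (adjusted p = 0.0375), a call lost in 5 of 7 such fits (adjusted p up to 0.124). Of 4 proteases tested, 1 fell, beside 18.7% of all genes. Mep1b, a meprin subunit, had 10, 171 and 152 counts in wild type and 0, 1, 0 and 0 in Tnc-/- (edgeR adjusted p = 0.00676). Its counts were high in the wild-type libraries where receptor-gene reads were high, and with the receptor-gene covariate its adjusted p was 0.105. Mmp3 (-0.53, SE 0.21, adjusted p = 0.0943) and Mmp2 (0.05, SE 0.23, adjusted p = 0.898), which cut tenascin-C, were not called. Mmp3 was called lower with the receptor-gene covariate (-1.12, edgeR adjusted p = 0.0445) and without wild-type libraries 2 and 3 (-0.93, adjusted p = 0.0312).

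The genes most like each member were those with the smallest root mean square difference in centred log2 CPM over the 7 libraries, out of 12090 candidates. This is a description of these libraries, which share depth and background, with no test. For Tnc they were Ifnar2 (0.45), a type I interferon receptor chain, Zfp932 (0.73) and Sox11 (0.73), beside a median of 1.63 over the candidates, so no gene tracked Tnc closely. Tnxb was tracked closely by Prrc2a (0.07) and Ppp1r9b (0.10), beside a median of 0.65. Prrc2a ran at 182, 137 and 119 CPM in wild type and 335, 318, 362 and 358 CPM in Tnc-/-, nearly the Tnxb pattern. The nearest to Tnn were the collagen VI gene Col6a2 (0.11), Trim47 (0.11) and Megf6 (0.11), beside a median of 0.49, and all 3 were highest in Tnc-/- library 4. Col6a2 was at 2465 CPM there and at 1015 to 1460 CPM in the other 6 libraries. The nearest to Tnr were the long neuronal genes Grin2a (0.31), Erbb4 (0.32) and Thsd7b (0.36), with spans of 427.7, 1076 and 946 kb, beside a median of 2.56. All 3 were highest in wild-type library 2, at 29.4, 93.1 and 105 CPM, and at most 2.90 CPM in any Tnc-/- library.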

How the data were processed

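Polyadenylated RNA of whole shoulder joints from 7 mice was made into NEBNext Ultra libraries, per the labels' protocols. The deposited values are raw counts per gene, and FastQC 0.11.9, HISAT2 2.2.1, HTSeq 2.0.2, DESeq2 1.38.3 and build GRCm39 (mm39) are named per the submitters' processing notes; counting settings were not given in the sources used here. Rows naming no gene, present for Tnc-/- alone, held 30.1 to 32.7% of the listed reads (11.4 to 11.6% ambiguous) and were left out.

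The 56854 identifiers common to all files were filtered with filterByExpr, scaled by TMM and tested with edgeR 4.0.16 in R 4.3.3 (robust quasi-likelihood F test, genotype as the single term, all 7 libraries), with Benjamini-Hochberg adjustment over 17791 genes and a threshold of 0.05. For single values per library, an exact two-sided permutation test ran over the 35 splits. Its p was double the smaller one-sided p, so the smallest was 0.0571. Scripts were tested on simulated data. Gene lengths, spans and overlaps came from GENCODE M21 (GRCm38), which held 91.4% of the shared identifiers. It differs from the authors' build, so no coordinates are given beyond those of the promoter windows, which are on GRCm38.p6.

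Alternatives were DESeq2 1.42.0 (Benjamini-Hochberg or Bonferroni), edgeR with Bonferroni, limma voom (limma 3.58.1), 3 other scalings, 3 other gene filters, thinning, a receptor-gene covariate, left-out libraries and a replicate block. Offsets for GC, length and span (mgcv 1.9.3), countable exon length and background subtraction were added after the data were seen. By rule, genes named beyond the 4 members were the 3 with the smallest adjusted p in each of 4 lists, and the 3 most like each member with at least 5 CPM. Other list genes and single markers were named after their values were seen. Among those so chosen, 1 gene is left unreported. The members, lists and tests were chosen with earlier results of these data known. Replicates shared numbers across genotypes but no stated source.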

Additional observations from a re-analysis of the deposited data

How the results depend on the processing

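Tnc was called in all 21 alternatives that gave a p, with log2 fold changes from -3.57 to -2.80, and Tnn in 0 of 22, from 0.02 to 0.54. Tnxb was called in 19 of 21 and Tnr in 18 of 21, and neither changed sign. With the receptor-gene covariate Tnxb stood at 0.80 and Tnr at -1.57, with edgeR and Bonferroni adjustment at 1.28 and -4.98 (adjusted p = 1 for both), and with limma voom Tnr stood at -4.44 (adjusted p = 0.157); none of these passed. Leaving out 1 library gave 1.15 to 1.59 for Tnxb, -5.40 to -4.22 for Tnr, 10.6 to 13.5% for residual Tnc and 0.36 to 0.65 for the log2 difference of the paralogue sum. The log2 difference of the family sum was -0.16 with all exons, -1.04 with countable exons and 0.27 with whole gene spans, by construction of the lengths. Only the countable exons leave out the part of Tnc that appeared uncountable.

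Of all genes tested, 5159 were called in the main analysis. The number was 22 with Bonferroni adjustment in edgeR, 9423 and 1890 with DESeq2 (Benjamini-Hochberg and Bonferroni), 1004 with limma voom, 442 with the covariate, 825 without wild-type libraries 2 and 3, and from 2229 to 14113 when 1 library was left out. Without wild-type library 1 it was 14113, of 21989 genes tested. DESeq2 tested 29121 genes, against 17791 in the main analysis, so these counts have unlike bases. Scaling by library totals called 951 higher and 4541 lower, against 1830 and 3329, and limma voom 728 higher and 276 lower. Tenascin pathway genes called numbered 14, and 0, 8, 7, 2 and 4 with edgeR Bonferroni, DESeq2 Bonferroni, limma voom, the covariate and without wild-type libraries 2 and 3, and from 7 to 24 when 1 library was left out. The cause of these shifts was not tested. Same-numbered replicates did not deviate together (correlations of -0.03, 0.07 and -0.01), and the replicate block left 1932 genes and 9 pathway genes called. In the fit of genes without exon overlap Tnn alone of the members remained. With 3 and 4 mice the exact test used here, which doubles the smaller one-sided p, could not reach 0.05. The 13 to 32 Tnr counts per Tnc-/- library limit what can be said of that gene.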
